A study of Mus musculus with 6 samples.

Results

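The steroidogenesis genes of Leydig cells were followed in whole testes of mice at postnatal day 12 (P12). They are 10 of the 54232 genes in the deposited count table and were chosen by name: *Star*, *Cyp11a1*, *Hsd3b1*, *Hsd3b6*, *Cyp17a1*, *Hsd17b3*, *Hsd17b1* and *Srd5a1*, which cover the steps from cholesterol import to androgen and estradiol, together with *Lhcgr* and *Insl3*. The rule uses their names alone, though the genes were chosen with earlier results of these data known. Bulk RNA-seq was performed on 3 libraries labelled *Dis3l2* WT and 3 labelled *Dis3l2* KO, all from testis of B6D2F1 mice. Per the methods, the KO mice carry *Stra8-Cre* with 1 floxed and 1 deleted *Dis3l2* allele, and the controls are littermates whose own alleles are not spelled out in the labels. *Stra8-Cre* acts in spermatogonia and early spermatocytes and by design not in Leydig cells. By that genotype, the deleted allele is present in every cell of a KO mouse. The labels do not say whether each library is 1 animal, so p-values measure the spread between these libraries.

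Leydig cells lie between the seminiferous tubules and make the androgens of the testis. Luteinizing hormone binds its receptor on these cells and raises cAMP, cholesterol then enters the mitochondrion, and a chain of P450 enzymes and hydroxysteroid dehydrogenases turns it into testosterone. In mice, fetal Leydig cells give way after birth to an adult population that arises from interstitial progenitors during the first weeks of life.

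Library totals ran from 33325483 to 44956193 counts, and the 10 genes together took 0.0454% to 0.0683% of them. The transcript named in the labels, *Dis3l2*, had 25.8, 23.5 and 23.0 CPM (counts scaled to library size, with TMM factors) in WT libraries 1 to 3 (WT1 to WT3) and 31.6, 25.4 and 27.5 CPM in KO1 to KO3, which is a log2 fold change of 0.22 ± 0.11 (SE, adjusted p = 0.136, edgeR's quasi-likelihood test). It was at -0.22 (adjusted p = 0.168, edgeR, not called) when scaled to markers of 5 somatic cell types. Scaled to Sertoli markers it was called lower, at -0.47 (adjusted p = 0.00282, edgeR), but on that scale 66.5% of all genes were called lower and the median gene was at -0.72, so *Dis3l2* lay above the median gene. *Dis3*, which the series' design sentence names as the deleted gene, was lower under TMM by a log2 fold change of -1.13 (adjusted p = 2.7e-07, edgeR). Germ cell markers were lower in the same libraries (median log2 fold change -1.66), and the part of germ cells in the change of *Dis3* was not tested. The *Dis3l2* count covers all 8901 exon bases of the gene and all cells of the testis. It does not single out exons deleted in germ cells. The study also checked the loss of *Dis3l2* by other assays, which were not analysed here. The groups are therefore called by their labels throughout, and every direction below is from WT to KO-labelled. Germ cell markers were lower in the KO-labelled libraries for 4 of 5 genes under TMM, beside 16.5% of all genes tested. Their median log2 fold change was -1.66, and *Zbtb16* at 0.14 was the exception. Sertoli cell markers were higher for 10 of 10 (median 0.72), beside 16.2% of all genes. In RNA of a whole testis, more or fewer cells of a type and more or less RNA per cell cannot be told apart.

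*Hsd3b1* and *Hsd3b6* encode the paralogous 3β-hydroxysteroid dehydrogenases of the mouse testis, and their likeness bears on how far 50-base reads can separate them. Over the 1122 bases of coding sequence (the longest reading frame of a transcript of each), 112 bases differed, an identity of 90.0%. The stretch with the most differences, coding bases 110 to 159, held 12 and is printed 5′ to 3′ from the GENCODE M21 transcripts, with the differing bases in capitals.
Hsd3b1: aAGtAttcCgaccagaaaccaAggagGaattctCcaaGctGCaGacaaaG
Hsd3b6: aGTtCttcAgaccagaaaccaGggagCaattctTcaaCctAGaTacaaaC
The opposite case was a run of 72 bases, coding bases 250 to 321, that both genes share without a difference.
Hsd3b1 and Hsd3b6: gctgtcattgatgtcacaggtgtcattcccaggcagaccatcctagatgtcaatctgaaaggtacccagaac
Of the 1073 windows of 50 bases along the coding sequence, 38 (3.54%) were the same in both genes, and the median window held 5 differences. Reads from such a shared window map to more than 1 place and were not counted for either gene. Over whole transcripts, 4.86% of the 50-base windows of *Hsd3b1* and 15.7% of those of *Hsd3b6* also occurred in a transcript of another gene. The other 5 *Hsd3b* genes in the table, *Hsd3b2* to *Hsd3b5* and *Hsd3b7*, held 143 of 39808 counts of the family over the 6 libraries (0.359%).

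Promoter windows, from 250 bases before to 50 bases after the start site, were available for 7 of the 10 genes, as 8 windows (RefSeq, GRCm38.p6). *Star*, *Cyp17a1* and *Hsd17b1* are not among the 7. The letters of 3 motifs were searched on both strands. The binding motif of NR5A1 (steroidogenic factor 1), searched as CAAGGTCA or CAAGGCCA, was in 0 of the 8 windows and in 3.88% of 32544 promoters. The shorter motif AGGTCA, shared by many nuclear receptors and also part of CAAGGTCA, was in the downstream one of the 2 *Cyp11a1* windows and in the *Lhcgr* window, against 16.2% of all promoters. The GATA motif, searched as AGATAA alone and in no other spelling, was in the *Hsd3b6* and *Hsd3b1* windows, against 11.2% of all promoters. These 4 windows are shown because the genes were called higher and carry a match, with the match in capitals. A match is a run of letters and not a measured binding site.
Cyp11a1, chr9:58014702-58015001, plus strand: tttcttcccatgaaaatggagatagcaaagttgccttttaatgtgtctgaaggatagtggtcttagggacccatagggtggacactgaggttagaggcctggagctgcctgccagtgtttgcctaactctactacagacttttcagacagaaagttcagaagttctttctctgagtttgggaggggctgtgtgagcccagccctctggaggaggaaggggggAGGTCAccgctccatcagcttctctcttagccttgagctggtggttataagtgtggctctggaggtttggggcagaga
Lhcgr, chr17:88791965-88792264, minus strand: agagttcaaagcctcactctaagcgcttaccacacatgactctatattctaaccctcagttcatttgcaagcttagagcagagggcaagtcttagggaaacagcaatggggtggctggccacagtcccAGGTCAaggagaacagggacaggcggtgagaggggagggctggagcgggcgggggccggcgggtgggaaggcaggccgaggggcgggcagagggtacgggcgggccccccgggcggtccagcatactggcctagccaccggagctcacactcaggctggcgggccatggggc
Hsd3b6, chr3:98814394-98814693, minus strand: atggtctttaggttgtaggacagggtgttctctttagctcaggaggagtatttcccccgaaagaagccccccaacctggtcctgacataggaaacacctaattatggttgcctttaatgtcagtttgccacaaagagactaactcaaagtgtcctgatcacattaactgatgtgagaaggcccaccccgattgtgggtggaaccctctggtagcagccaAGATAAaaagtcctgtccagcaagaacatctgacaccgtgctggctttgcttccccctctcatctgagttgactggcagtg
Hsd3b1, chr3:98859745-98860044, minus strand: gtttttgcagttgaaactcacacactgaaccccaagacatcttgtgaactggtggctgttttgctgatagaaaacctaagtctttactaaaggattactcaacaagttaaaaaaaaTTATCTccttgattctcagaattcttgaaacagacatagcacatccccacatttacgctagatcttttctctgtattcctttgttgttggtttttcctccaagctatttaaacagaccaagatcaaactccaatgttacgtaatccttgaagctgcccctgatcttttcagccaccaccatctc
AGGTCA lies 28 to 23 bases before the start in *Cyp11a1* and 122 to 117 bases before it in *Lhcgr*. The GATA match lies 31 to 26 bases before the start in *Hsd3b6*, and 134 to 129 bases before it in *Hsd3b1*, where it reads TTATCT because it is on the other strand.

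All 10 genes passed the filter on low counts, and under TMM scaling 7 of 10 were called higher in the KO-labelled libraries (adjusted p under 0.05 over all 20327 genes tested, edgeR's quasi-likelihood test), beside 16.2% of all genes tested. Scaled to markers of other somatic cells, as described further on, this count was 3 or 1. The 7 were *Cyp11a1*, *Hsd3b1*, *Hsd3b6*, *Cyp17a1*, *Hsd17b1*, *Srd5a1* and *Lhcgr*. Under TMM none was called lower, beside 16.5% of all genes: 0 members fell at an unadjusted p under 0.05, and DESeq2 and limma-voom also called 0. The median log2 fold change of the 10 genes was 0.56, and that of all genes tested was -0.02. Every KO-labelled library lay above every WT library for 7 of the 10 genes, beside 21.7% of all genes.

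**Figure D1:**
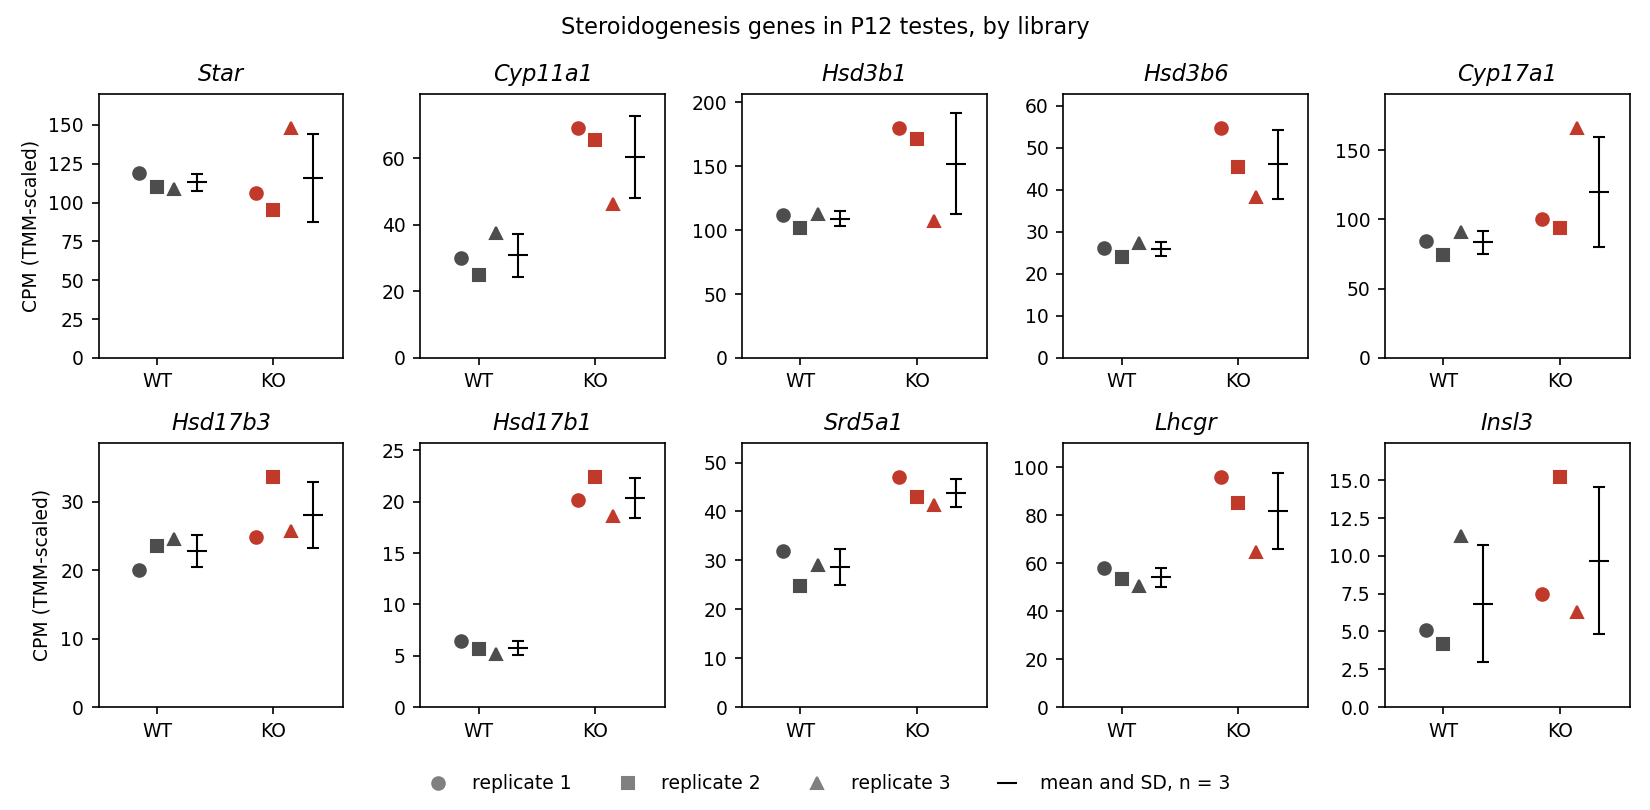
CPM (TMM-scaled, y axes from 0) of the 10 genes in each library, WT in grey and KO-labelled in red, with the mean and SD (n = 3) beside the points. *Hsd17b1* shows the widest gap between the groups, and *Star*, *Hsd3b1* and *Insl3* are the genes whose groups overlap.

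*Star* (chromosome 8, 25806555 to 25815982, GRCm38) encodes the protein that moves cholesterol to the inner mitochondrial membrane, the step that hormones regulate most quickly. It had 119, 110 and 109 CPM in WT1 to WT3 and 106, 94.9 and 148 CPM in KO1 to KO3. The groups overlapped, with KO3 above every WT library and KO1 and KO2 below every WT library. The log2 fold change was 0.05 (95% interval -0.23 to 0.32, adjusted p = 0.821, edgeR), and it turned to -0.16 (adjusted p = 0.221) without KO3 and to -0.65 with Sertoli markers as the scale.

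*Cyp11a1* (chromosome 9, 58006411 to 58027023) encodes the side-chain cleavage enzyme, which makes pregnenolone from cholesterol and commits it to steroids. Its level was 30.1, 24.8 and 37.5 CPM in WT1 to WT3 and 69.1, 65.5 and 46.4 CPM in KO1 to KO3, with no overlap and a log2 fold change of 0.97 ± 0.16 (SE, adjusted p = 0.000247, edgeR). The *Star* to *Cyp11a1* ratio of TPM (a level per exon length) was 4.62, 5.20 and 3.40 in the WT libraries, 1.79 and 1.69 in KO1 and KO2, and 3.74 in KO3.

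The 3β-hydroxysteroid dehydrogenases turn pregnenolone and its derivatives into progesterone and androstenedione. *Hsd3b1* (chromosome 3, 98852194 to 98859794), the form found in fetal and adult Leydig cells, had 112, 102 and 113 CPM in WT1 to WT3 and 180, 171 and 107 CPM in KO1 to KO3. KO3 lay inside the WT range, while KO1 and KO2 were far above it. Its log2 fold change was 0.48 ± 0.14 (SE, adjusted p = 0.0173, edgeR), and the call was lost without KO1 (adjusted p = 0.0633), KO2 (0.0806) or WT2 (0.0604), and the sign turned with Sertoli markers as the scale (-0.22, not called). *Hsd3b6* (chromosome 3, 98805504 to 98814443), known as the form of adult Leydig cells, had 26.1, 24.1 and 27.4 CPM in WT1 to WT3 and 54.7, 45.4 and 38.3 CPM in KO1 to KO3. These groups did not overlap, and the log2 fold change was 0.83 ± 0.12 (SE, adjusted p = 0.000115, edgeR). The *Hsd3b6* to *Hsd3b1* ratio of TPM was 0.240, 0.242 and 0.251 in WT1 to WT3 and 0.314, 0.274 and 0.368 in KO1 to KO3. *Hsd3b1* thus stayed the more abundant form in all 6 libraries, and the share of *Hsd3b6* was above the WT range in each KO-labelled library. The difference between the changes of these genes was not tested.

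*Cyp17a1* (chromosome 19, 46667165 to 46672974) encodes the 17α-hydroxylase and 17,20-lyase that opens the way to androgens. Its level was 84.4, 74.6 and 91.2 CPM in WT1 to WT3 and 100, 93.8 and 166 CPM in KO1 to KO3. There was no overlap, but KO2 lay close to WT3 and KO3 carried most of the difference. The log2 fold change of 0.52 ± 0.16 (SE, adjusted p = 0.0233, edgeR) fell to 0.23 (adjusted p = 0.0951) without KO3. The call was also lost without WT1 (adjusted p = 0.0595), without WT2 (0.0849), and with DESeq2 (log2 fold change 0.54, adjusted p = 0.135), and the sign turned on the Sertoli scale (-0.16, not called).

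The last steps in the testis are reductions by 17β-hydroxysteroid dehydrogenases. *Hsd17b3* (chromosome 13, 64058266 to 64089230), the enzyme that makes testosterone from androstenedione, had 20.1, 23.6 and 24.6 CPM in WT1 to WT3 and 24.8, 33.6 and 25.8 CPM in KO1 to KO3. The groups stood apart by a narrow margin, and the log2 fold change of 0.30 (95% interval 0.03 to 0.58) did not pass the test (adjusted p = 0.0881, edgeR), though it did without KO1 (adjusted p = 0.0412), and on the Sertoli scale the gene was lower (-0.41). *Hsd17b1* (chromosome 11, 101078411 to 101080527) encodes an enzyme best known for making estradiol from estrone in the ovary, and in the fetal mouse testis it is expressed in Sertoli cells. It had 6.48, 5.62 and 5.18 CPM in WT1 to WT3 and 20.2, 22.4 and 18.6 CPM in KO1 to KO3. This was the largest change of the 10 genes, 3.55-fold (log2 fold change 1.83 ± 0.14, SE, adjusted p = 4.37e-07, edgeR). The *Hsd17b1* to *Hsd17b3* ratio of TPM was 0.334, 0.247 and 0.219 in WT1 to WT3 and 0.847, 0.693 and 0.749 in KO1 to KO3, so that *Hsd17b3* remained the more abundant transcript per length in all 6. Sertoli cell markers were higher in the same libraries, with summed levels of 7210 to 7540 CPM in the WT and 11300 to 12000 CPM in the KO-labelled libraries. The log2 fold changes of these 10 markers ran from 0.33 to 1.56, the highest being *Amh*. Scaled to those markers, the value for *Hsd17b1* was 1.12 on the log2 scale (adjusted p = 5.21e-06, edgeR). The part of Sertoli cells in the change of *Hsd17b1* was not tested.

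*Srd5a1* (chromosome 13, 69573449 to 69611442) encodes a 5α-reductase, which in immature Leydig cells sends androgens toward androstanediol. It had 31.9, 24.7 and 29.1 CPM in WT1 to WT3 and 47.0, 43.0 and 41.4 CPM in KO1 to KO3. The libraries of each group lay close together and the groups did not overlap. Its log2 fold change was 0.62 ± 0.11 (SE, adjusted p = 0.000505, edgeR), and it stayed called whichever library was left out, but was -0.08 and not called on the Sertoli scale. Of its 2909 exon bases, 476 (16.4%) are shared with *Gm17108* on the same strand, where reads that overlap 2 genes were not counted.

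*Lhcgr* (chromosome 17, 88741549 to 88791976) encodes the receptor through which luteinizing hormone drives the pathway. Its level was 58.2, 53.6 and 50.4 CPM in WT1 to WT3 and 95.9, 85.0 and 64.6 CPM in KO1 to KO3. All KO-labelled libraries were above the WT range, KO3 by the least, at a log2 fold change of 0.60 ± 0.12 (SE, adjusted p = 0.00155, edgeR). That call also held whichever library was left out, but the value was -0.11 and not called on the Sertoli scale.

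*Insl3* (chromosome 8, 71689214 to 71690575) encodes the peptide hormone of Leydig cells that guides testis descent and rises as they mature. It had 5.10, 4.14 and 11.3 CPM in WT1 to WT3 and 7.45, 15.2 and 6.31 CPM in KO1 to KO3. WT3 lay above 2 of the KO-labelled libraries, and the SD was 56.7% of the mean in the WT and 50.3% in the KO-labelled group, the widest relative spread of the 10 genes. The log2 fold change of 0.50 (95% interval -0.25 to 1.24) did not pass the test (adjusted p = 0.302, edgeR). It ran from 0.01 without KO2 to 1.07 without WT3, where it was called (adjusted p = 0.0236), and was -0.22 on the Sertoli scale. Of its 623 exon bases, 404 (64.8%) are shared with *Jak3* on the same strand, so its counts come from the other 219 bases at most and its level per length is understated.

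The order of the levels was read in TPM, which scales each count by exon length. That length is all annotated exon bases of a gene and not the transcript expressed. Ranks and ratios between genes therefore also depend on the annotation. In the WT libraries *Hsd3b1* stood first at 206 ± 14.9 TPM (SD, n = 3), followed by *Cyp17a1* at 135 ± 16.7, *Star* at 96.2 ± 4.34, *Lhcgr* at 74.2 ± 4.59 and *Hsd17b3* at 57.5 ± 6.63 TPM. *Hsd3b6*, *Insl3*, *Srd5a1*, *Cyp11a1* and *Hsd17b1* came after them, the last at 15.1 ± 1.57 TPM. Neighbours in this order did not overlap, except *Hsd17b3* with *Hsd3b6*, *Hsd3b6* with *Insl3* and *Insl3* with *Srd5a1*. In the KO-labelled libraries *Hsd3b1*, at 272 ± 69.3 TPM (SD, n = 3), and *Cyp17a1*, at 183 ± 61.9, were again first and second, and *Cyp17a1* and *Lhcgr* were the only neighbours that did not overlap. *Hsd17b1* stood at rank 8, against rank 10 in the WT, at 50.4 ± 4.55 TPM, and *Cyp11a1* took rank 10 at 41.5 ± 8.20 TPM. Levels were also counted over the exon bases that no other gene shares on its strand, a calculation added after seeing the data. *Insl3* then had 111 ± 65.6 TPM in the WT and 146 ± 73.0 TPM in the KO-labelled libraries. It moved from rank 7 to rank 3 in both groups. In the KO-labelled libraries *Srd5a1* then had 59.6 ± 3.7 TPM (SD, n = 3) and rank 8, and *Hsd17b1* had rank 9.

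The 3 KO-labelled libraries did not vary in the same way for all genes. KO3 had the highest *Star* and *Cyp17a1* of its group and the lowest values of 7 of the other 8 genes, the exception being *Hsd17b3*, which was lowest in KO1. In log2 CPM, KO3 was 0.38 above its group's mean for *Star* and 0.51 above it for *Cyp17a1*, but -0.47 from it for *Hsd3b1*, -0.36 for *Cyp11a1* and -0.32 for *Lhcgr*. Over the 6 libraries, deviations from the group means had a Pearson correlation of 0.92 for *Star* with *Cyp17a1*, 0.90 for *Hsd3b1* with *Lhcgr* and 0.89 for *Hsd3b1* with *Hsd3b6*. For *Star* with *Hsd3b1* it was -0.90. These correlations describe 6 libraries, among which KO3 deviates most for *Star*, *Cyp17a1*, *Hsd3b1* and *Lhcgr*, and the genes of a pair share the depth and scaling of each library. Without KO3, the median log2 fold change of the 10 genes was 0.72 and 6 were called higher, with *Hsd3b1* at 0.69 (adjusted p = 2.0e-05, edgeR).

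**Figure D2:**
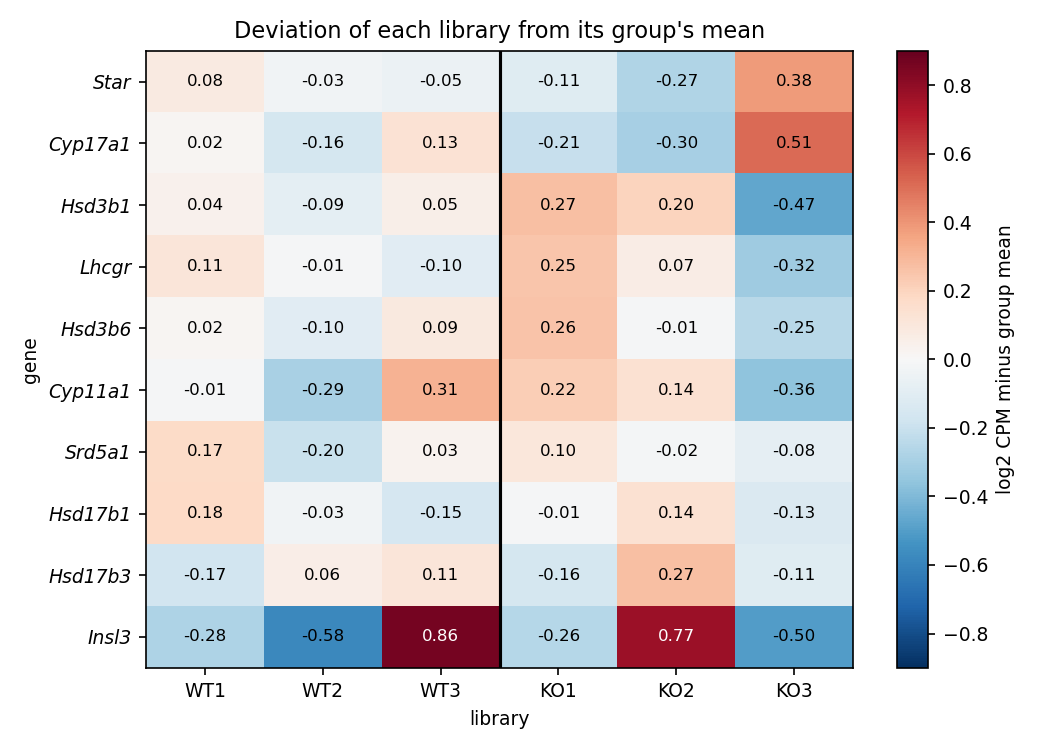
Deviation of each library (columns) from the mean of its group, in log2 CPM, for the 10 genes (rows), with red above and blue below the mean. In KO3, *Star* and *Cyp17a1* are red and the others blue, and *Insl3* deviates most in WT3, KO2 and WT2.

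The mean deviation of the 10 genes was small, from -0.14 in WT2 to 0.13 in WT3. It does not stand for every gene: *Star* and *Cyp17a1* ran against the mean of the other 9 (Pearson correlations of -0.74 and -0.57 over the 6 libraries). Of 11835 other genes with a mean of at least 5 CPM, the 5 whose deviations followed it most closely were *Cyba*, *Meis1*, *Csad*, *Kdm8* and *Syt13* (Pearson correlation of 0.994 and above). Over so few libraries unrelated genes can correlate as highly, and nothing is read from these names.

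Since germ cell markers were lower and Sertoli markers higher in the KO-labelled libraries, the 10 genes were also read on a scale set by markers of somatic cells other than Leydig cells. These markers did not move alike under TMM. Peritubular myoid markers were lower for 3 of 5 genes, beside 16.5% of all genes tested. Endothelial markers were higher for 2 of 5 and stromal markers for 2 of 6, beside 16.2%. The tests below treat the factors set by markers as known, so p-values and intervals leave out the uncertainty of the marker choice. With markers of 5 somatic cell types as the scale (Sertoli, peritubular myoid, endothelial, macrophage and stromal), 3 of the 10 genes were called higher, beside 2.02% of all genes tested, and 1 was called lower, beside 44.0%. The 3 were *Cyp11a1* at a log2 fold change of 0.53 (adjusted p = 0.00506), *Hsd3b6* at 0.39 (0.0141) and *Hsd17b1* at 1.39 (4.23e-07), and the 1 was *Star* at -0.38 (0.0379, edgeR's quasi-likelihood test). On this scale the median of all genes was -0.46 and that of the 10 genes 0.13. *Hsd3b1* at 0.04, *Cyp17a1* at 0.10, *Lhcgr* at 0.15, *Srd5a1* at 0.18, *Insl3* at 0.07 and *Hsd17b3* at -0.13 did not pass the test there.

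Scaled to the Sertoli markers alone, *Hsd17b1* was the 1 gene called higher, beside 0.664% of all genes. *Star* at -0.65 (adjusted p = 0.00099, edgeR) and *Hsd17b3* at -0.41 (adjusted p = 0.00926) were the 2 called lower, beside 66.5%. The median was -0.72 for all genes and -0.13 for the 10 genes. *Cyp11a1* at 0.26 and *Hsd3b6* at 0.13 kept a positive sign without a call, and the other 5 were negative without a call. Of the 7 genes called higher under TMM, *Hsd17b1* was called higher under all 3 scalings, *Cyp11a1* and *Hsd3b6* under 2, and the other 4 under TMM alone.

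**Figure D3:**
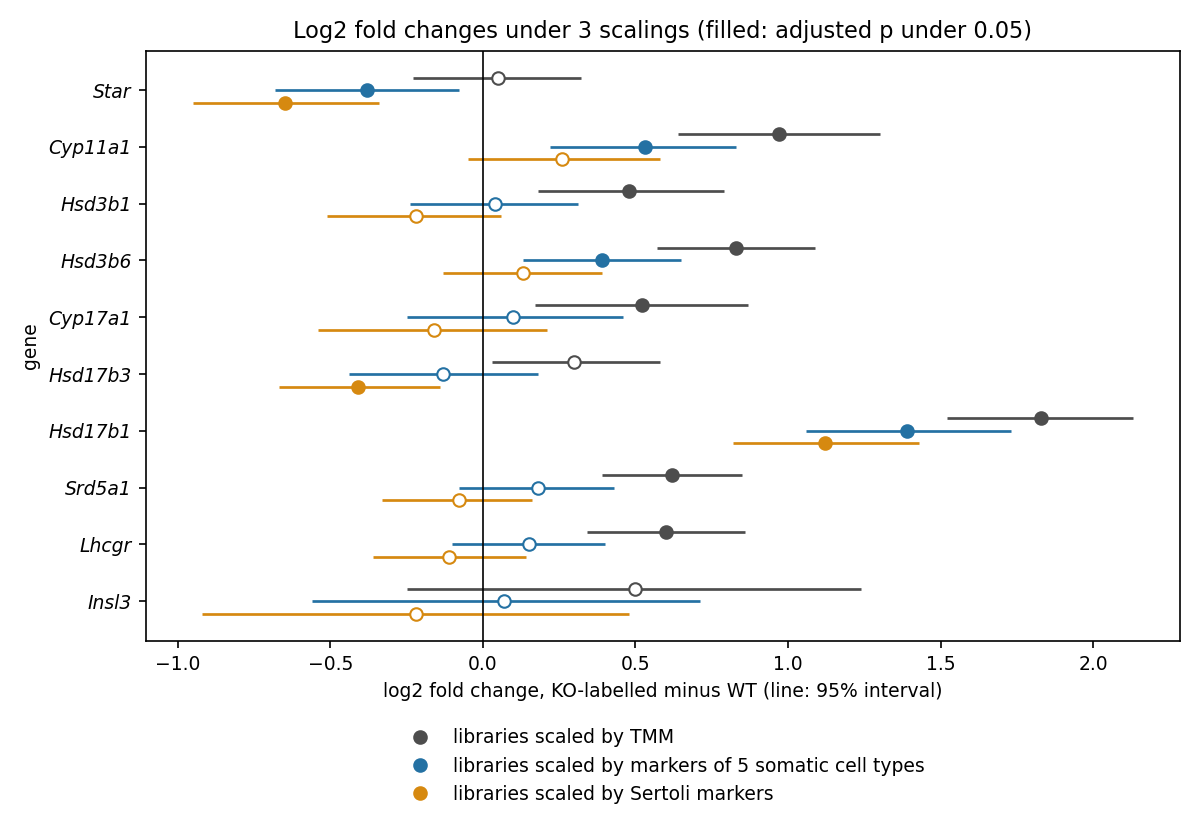
Log2 fold change (x axis, KO-labelled minus WT, points) with its 95% interval (lines) for the 10 genes under TMM, markers of 5 somatic cell types and Sertoli markers, with filled points at an adjusted p under 0.05. Each gene shifts to the left from TMM to the marker scalings, and *Hsd17b1* alone is filled to the right of 0 in all 3.

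Markers of Leydig cells outside the 10 genes moved unevenly. Of the 6 listed for immature or adult Leydig cells, 3 were called higher under TMM, beside 16.2% of all genes tested. The 3 were *Vcam1* (log2 fold change 1.05), *Ptgds* (0.85, at only 1.47 to 4.21 CPM over the libraries) and *Prlr* (0.81). *Prlr*, *Akr1c14*, *Hsd11b1* and *Sult1e1* are also in the list of other pathway genes used below. *Akr1c14* was at 0.27 and not called, and *Hsd11b1* and *Sult1e1*, the markers of late maturation, were below 1 CPM in all 6 libraries. Their summed level ran from 276 to 303 CPM in the WT and from 387 to 695 CPM in the KO-labelled libraries, most of it *Vcam1*, which other cells also express. Of 4 fetal Leydig markers, *Dlk1* was called higher (0.62), *Thbs2* and *Mc2r* were not called, and *Crhr1* was too low to test. The adrenal cortex shares the early steps of the pathway, and its own *Cyp11b1* and *Cyp11b2* stayed below 0.3 CPM in every library, and epididymis markers summed to at most 0.605 CPM. *Cyp21a1*, an adrenal gene, had 3.20 to 5.43 CPM in the WT and 4.43 to 9.24 CPM in the KO-labelled libraries. Macrophage markers, whose cells sit beside Leydig cells, were higher for 4 of 5 genes, beside the same 16.2%. These markers summed to 131 to 151 CPM in the WT and 175 to 249 CPM in the KO-labelled libraries. Their part in the changes of the 10 genes was not tested.

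The other genes of the pathway were taken from a list of 50, of which 49 were in the table and 47 were tested. Under TMM, 20 of the 47 were called higher, beside 16.2% of all genes tested, and 1 lower, beside 16.5%, with a median log2 fold change of 0.27. Cholesterol supply had 5 of 11 higher, led by the mitochondrial channel *Vdac1* (0.63, from 106 ± 2.77 to 164 ± 18.5 CPM, SD, n = 3) and the HDL receptor *Scarb1* (0.52, from 208 ± 16.6 to 298 ± 16.9 CPM), and *Soat1* (0.48) and *Npc2* (0.33) were also among them. Of the electron donors, 3 of 5 were higher: *Fdxr* (0.61), which feeds electrons to ferredoxin for CYP11A1, *Cyb5a* (0.44), which aids the lyase step of CYP17A1, and *Cyb5r3* (0.37). *Fdx1*, the ferredoxin between FDXR and CYP11A1, had 18.2, 14.3 and 19.5 CPM in WT1 to WT3 and 11.4, 11.8 and 17.1 CPM in KO1 to KO3. Its log2 fold change of -0.36 did not pass the test (adjusted p = 0.111, edgeR) with all libraries, and it was called lower without KO3.

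Of 11 other steroid enzymes tested, 2 were called higher, *Hsd17b11* (0.37) and *Hsd17b12* (0.31), a share near the 16.2% of all genes, and 0 were lower (0 also with DESeq2 and limma-voom, and 0 at an unadjusted p under 0.05). *Cyp19a1*, the aromatase that makes estradiol from testosterone, was at 0.565 CPM or less in every library and was not tested. Of the hormone receptors and cAMP genes, 4 of 9 were higher, among them the prolactin receptor *Prlr* (0.81, from 78.2 ± 6.60 to 137 ± 23.1 CPM, SD, n = 3), *Esr1* (0.63) and *Gnas* (0.42). Of the transcription regulators, 6 of 11 were higher and 1 lower. *Gata4* (0.67, from 158 ± 9.22 to 253 ± 19.5 CPM) and *Gata6* (0.55) had the smallest adjusted p, and both are also expressed in Sertoli cells. *Nr5a1* (0.54) was higher in all KO-labelled libraries than in any WT library, as were 21.7% of all genes tested. It was called higher under TMM but on neither marker scale. *Crem*, whose activator form works in germ cells, was the 1 lower (-0.67, from 24.5 ± 4.24 to 15.4 ± 2.83 CPM, SD, n = 3). On the scale of 5 somatic cell types, 2 of the 47 (*Nr4a1* and *Prlr*) were higher, beside 2.02% of all genes, and 12 lower, beside 44.0%. On that of Sertoli markers 0 were higher by edgeR (1 at an unadjusted p under 0.05), beside 0.664% of all genes, and 27 lower, beside 66.5%.

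**Figure D4:**
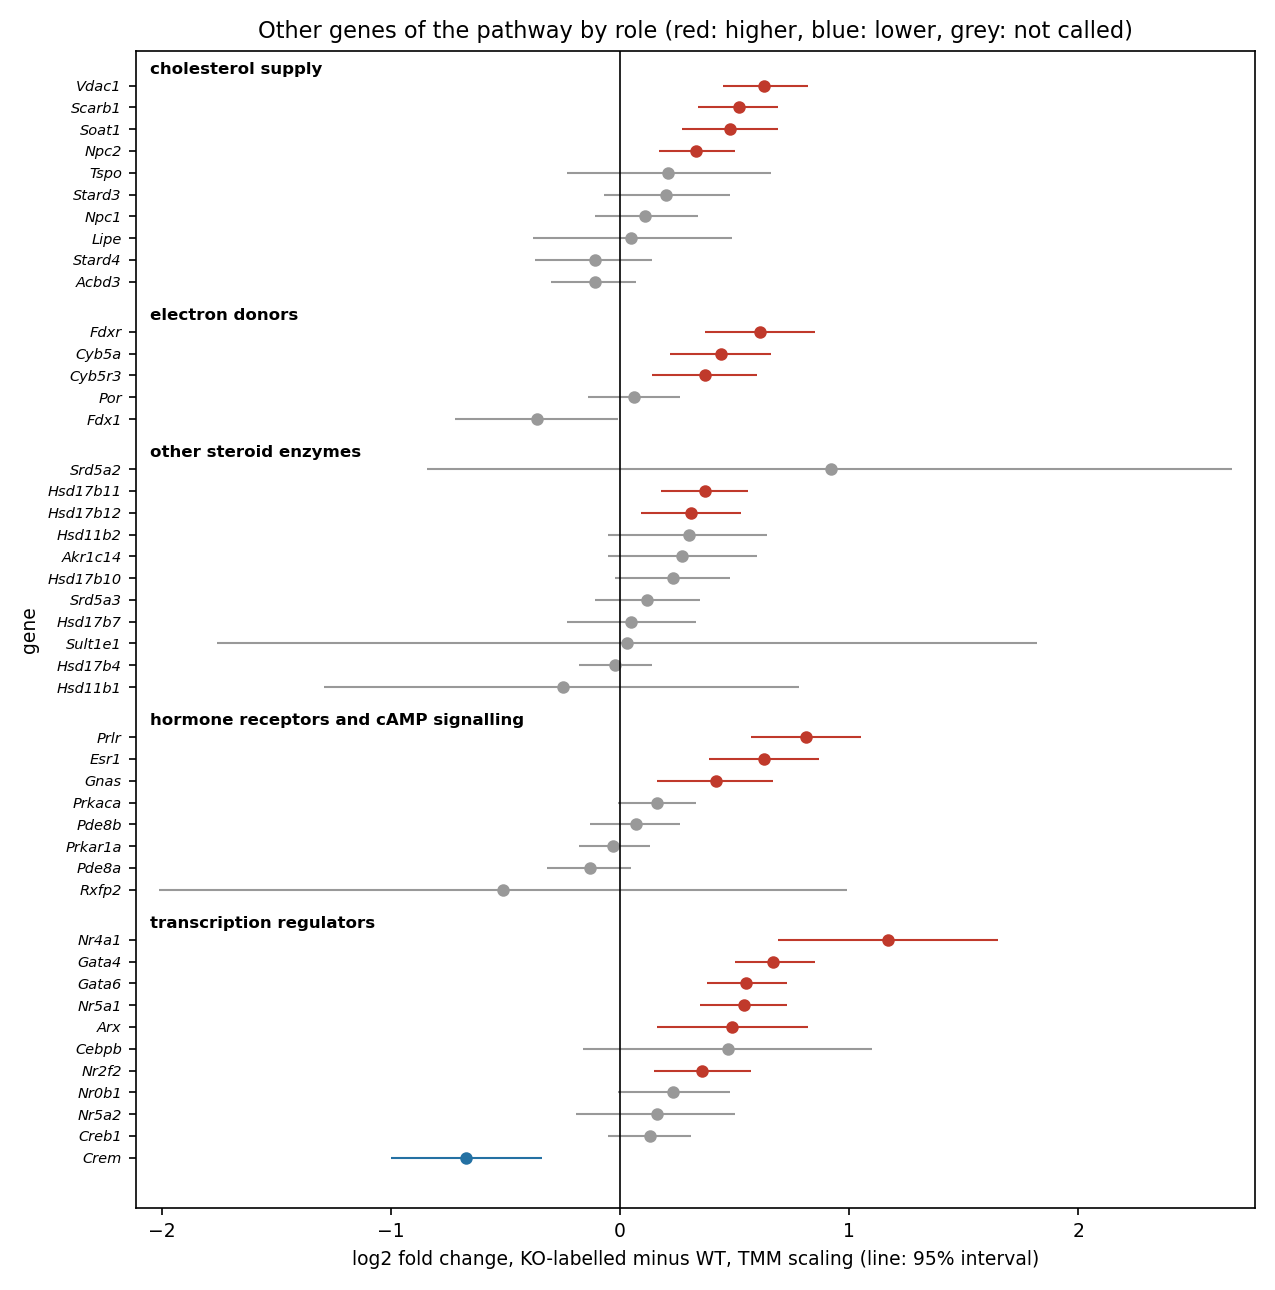
Log2 fold change (x axis, TMM scaling, KO-labelled minus WT) with its 95% interval for 45 of the other pathway genes tested, grouped by role, red where called higher, blue where called lower and grey otherwise. The 18 red points occur in all 5 roles, and *Crem* is the blue point.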

How the data were processed

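Bulk RNA-seq of P12 testes was analysed for 3 WT and 3 KO-labelled libraries, grouped by their titles. The libraries were made with a TECAN Universal kit and read as 50-base single ends. The authors trimmed reads with cutadapt, aligned them with HISAT2 (GRCm38.p5 per the labels) and counted them with featureCounts 1.6.4 on 1 strand over GENCODE M18, leaving out multi-mapping reads and reads over more than 1 gene. Raw counts per gene are what the deposited table holds, and 0 columns of library values were left unused. Symbols came from GENCODE M21 (54165 of 54232 identifiers).

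The quasi-likelihood test of edgeR 4.0.16 (R 4.3.3) was run on the counts after filterByExpr and TMM (glmQLFit, glmQLFTest), with Benjamini-Hochberg adjustment over all 20327 genes tested. The study used DESeq2, which is an alternative here (1.42.0). TPM were computed from counts and exon length, and log2 CPM carry a prior count of 1. Other alternatives were limma-voom (limma 3.58.1), RLE and upper-quartile factors, factors from markers of 5 somatic cell types or of Sertoli cells, no filter, at least 10 counts in every library, a replicate block, and fits without each single library. The fits of edgeR, DESeq2 and limma-voom were checked on simulated counts in which few genes changed. Marker scalings and a broad shift in composition were not simulated. Depth was 33325483 to 44956193 counts per library, and replicates differed by more than counting noise (chi-square per degree of freedom 11.1 to 27.4), so none is a copy.

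The 10 genes, the lists and the tests were chosen with earlier results of these data known. Named beside the 10 were *Dis3l2* and *Dis3*, the 2 called pathway genes with the smallest adjusted p per role and direction, the 5 genes that follow the mean deviation most closely, and members of a list whose count is 5 or fewer. *Nr5a1*, *Fdx1*, *Cyp19a1*, *Zbtb16* and *Akr1c14* were named after their values were seen. Some list members are not reported here by name. The tables were handled with pandas 2.3.3 and the plots drawn with matplotlib 3.10.9.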

Additional observations from a re-analysis of the deposited data

How the results depend on the processing

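Of 150 recomputed log2 fold changes of single genes, 123 kept their direction and side of the threshold and 10 turned sign. Of those that kept their sign, 13 lost the call and 4 gained one. Calls lost or gained where the sign turned are not in these 2 counts. The sign turned for *Star* in 3 settings (-0.38 with 5 somatic cell types, -0.65 with Sertoli markers, -0.16 without KO3, where leaving out 1 library gave -0.16 to 0.18) and for *Hsd17b3* in 2 (-0.13 and -0.41 with the same marker scalings). With Sertoli markers it also turned for *Hsd3b1* (-0.22), *Cyp17a1* (-0.16), *Srd5a1* (-0.08), *Lhcgr* (-0.11) and *Insl3* (-0.22). The marker scalings shift all genes by construction, with a median of -0.46 and -0.72.

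Genes called higher among the 10 were 3 and 1, and those called lower 1 and 2, with 5 somatic cell types and Sertoli markers, against 7 and 0 with TMM. For the other pathway genes these were 2 and 0 higher (2.02% and 0.664% of all genes) and 12 and 27 lower (44.0% and 66.5% of all genes), against 20 and 1. Without a filter on low counts 9 of the 10 were higher, with *Insl3* (adjusted p = 0.0177, edgeR) and *Hsd17b3* (0.0414) added. Leaving out 1 library gave 5 to 8 genes higher and 0 lower among the 10, and 17 to 21 higher and 1 to 2 lower among the pathway genes, the second being *Fdx1* without KO3. RLE and upper-quartile factors, limma-voom and the stricter filter each gave 7 higher and 0 lower of the 10, and DESeq2 gave 6 and 0.

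Across the genes tested, deviations of same-numbered libraries had correlations of -0.0014, -0.0126 and 0.0139. With 3 libraries per group, these values cannot decide whether the numbers mark pairs, such as littermates. The fit with a replicate block called 7 of the 10 and 20 pathway genes higher and 0 and 1 lower, and changed no call. For *Insl3*, with 176 to 653 counts per library, spread between libraries and not counting limits the precision.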
